A study of Sus scrofa with 9 samples.

Results

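Melanopsin (OPN4) and encephalopsin (OPN3) are opsins that are best known outside the rods and cones. Their messenger RNA was followed through pig spermatogenesis. Both genes were picked by name because OPN4 RNA nearly vanished between spermatogonia and round spermatids in these libraries, so the pattern of OPN4 across stages is the reason for its choice and is described here with no test. Of the 2 genes, 1 was found among the 22342 gene identifiers of the deposited tables. It is OPN4, with the identifier ENSSSCG00000010358. No identifier carried the symbol OPN3, which may be among those without a symbol, and OPN3 is not analysed here.

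Opsins are receptors with 7 membrane-spanning helices that hold retinal, a vitamin A aldehyde, as their light-sensing group. In mouse retina melanopsin marks the intrinsically photosensitive ganglion cells, which set the daily clock and the pupil reflex. There it couples to G proteins of the Gq class, phospholipase C beta 4 (PLCB4) and the cation channels TRPC6 and TRPC7. Receptor kinases and arrestins end the signal. Opsins have also been described in mouse and human sperm, where they were tied to swimming along a temperature gradient.

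Pig testis cells gave total RNA for sequencing at 3 stages, with 3 libraries for each. Spermatogonia, the mitotic founders of the male germ line, carried the library numbers 1, 2 and 3. Spermatocytes, the cells in meiosis, carried 2, 3 and 4, and round spermatids, the haploid products of meiosis, carried 1, 2 and 3. No strain, age, genotype or treatment is named for any stage in the labels used here, and neither is the way in which the cells were separated. The spermatocyte and spermatogonia columns were matched to their samples through headings that name the pachytene stage and the KIT receptor. Library totals ran from 47963279 to 64639201 estimated counts, and 16802 genes passed the filter on low counts. Round spermatid replicate 2 stood apart from the other 2 libraries of its stage. The summed markers of spermatogonia were higher in round spermatids than in the libraries labelled spermatogonia, an order that rested on 1 marker, ID4. Levels are given as CPM, counts scaled to library size, after TMM scaling, or as TPM where genes are compared with each other, since TPM also allows for transcript length. The 3 stage comparisons share libraries, so they are not independent of each other.

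OPN4 lies on chromosome 14 of Sscrofa11.1, at chr14:87645563-87660820, a span of 15258 bases with 0 other annotated genes overlapping it in RefSeq. Spermatogonia libraries 1, 2 and 3 held 12640, 12683 and 12698 estimated counts of OPN4. Spermatocyte libraries 2, 3 and 4 held 293, 317 and 307, and round spermatid libraries 1, 2 and 3 held 57, 33 and 31. The stages did not overlap, and the RNA was still counted in all 9 libraries. In CPM the spermatogonia libraries stood at 179, 179 and 182, with a mean of 180.5 ± 1.72 (SD, n = 3). Spermatocytes stood at 5.74, 6.92 and 5.87 CPM, with a mean of 6.18 ± 0.645 (SD, n = 3). Round spermatids stood at 0.965, 0.546 and 0.524 CPM, with a mean of 0.678 ± 0.248 (SD, n = 3). Replicate 1 was the highest of the round spermatid libraries, and its 95% exact Poisson interval of 0.731 to 1.25 CPM met that of replicate 2, at 0.376 to 0.767 CPM, and that of replicate 3, at 0.356 to 0.743 CPM. These intervals cover counting error only. The coefficient of variation across libraries was 0.951% in spermatogonia, 10.4% in spermatocytes and 36.6% in round spermatids. Over all genes, spermatogonia libraries differed by little more than counting noise (median chi-square per gene 0.797 to 0.849, against 0.455 from counting alone). No animals are named, so the SD of spermatogonia may be largely technical, which also bears on p-values against them.

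**Figure D1:**
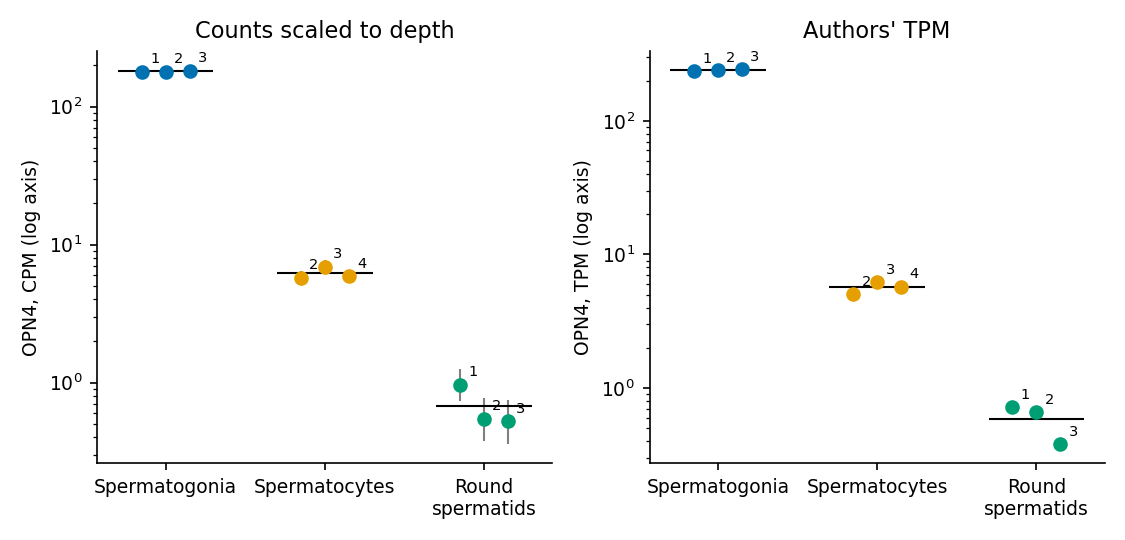
OPN4 in each library by stage, as CPM with 95% exact Poisson intervals and as TPM, both on log axes; points carry the replicate number and the black line is the stage mean. Spermatogonia sit at 179 to 182 CPM, spermatocytes at 5.74 to 6.92 CPM and round spermatids at 0.524 to 0.965 CPM.

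Per length, OPN4 was an abundant transcript in spermatogonia and a rare one in round spermatids. It stood at 235, 238 and 242 TPM in spermatogonia 1, 2 and 3, where 4.34 to 4.47% of the genes above 0 ranked higher. In spermatocytes 2, 3 and 4 it stood at 5.07, 6.19 and 5.76 TPM, with 42.4 to 45.0% of genes above it. In round spermatids 1, 2 and 3 it stood at 0.719, 0.663 and 0.379 TPM, with 74.9 to 80.8% of genes above it. Its place in the ranking dropped at each stage. The libraries of a stage stood close together in spermatogonia and spermatocytes. They lay further apart in round spermatids, where the coefficient of variation in TPM was 31.0%.

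Most of the loss lay between spermatogonia and spermatocytes. OPN4 averaged 6.18 CPM in spermatocytes against 180.5 CPM in spermatogonia, 29.2-fold lower, and the 9 ratios of single libraries ran from 25.9 to 31.8. Round spermatids averaged 0.678 CPM against 6.18 CPM in spermatocytes, 9.11-fold lower, with ratios of single libraries from 5.95 to 13.2. Across both steps round spermatids were 266-fold lower than spermatogonia in CPM and 406-fold lower in TPM. The fitted log2 differences were −4.87 ± 0.197 for spermatocytes against spermatogonia, −3.18 ± 0.206 for round spermatids against spermatocytes and −8.05 ± 0.235 for round spermatids against spermatogonia (SE), while the medians over all tested genes were −0.32, 0.19 and 0.00. Without round spermatid replicate 2, the library that stood apart, the last 2 differences were −3.05 and −7.92. In round spermatids against spermatogonia OPN4 was 9th from the lowest value among the 16802 tested genes, and 1st among the 4965 genes with at least 50 CPM in the higher stage. Between neighbouring stages it ranked 7th of 4629 such genes in spermatocytes against spermatogonia, and 99th of 5056 in round spermatids against spermatocytes. OPN4 was picked for its fall across stages, so these ranks are a description only. The cut at 50 CPM was not among the choices planned beforehand. In bulk RNA, fewer cells of a type and less RNA per cell cannot be told apart.

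OPN4 was the only opsin above trace level among the 5 compared here, which were OPN4, the short-wave cone pigment OPN1SW, neuropsin (OPN5), peropsin (RRH) and the retinal G protein-coupled receptor RGR, an opsin of the pigment epithelium. OPN3 and the cone pigment OPN1LW had no matching symbol and could not be compared. None of the 4 others passed the filter on low counts, and none exceeded 10 counts in any library. The highest was RRH, which averaged 0.313 TPM in spermatogonia, 0.220 TPM in spermatocytes and 0.0760 TPM in round spermatids. OPN5 had 12 counts over all 9 libraries, with 0 to 5 in each. In round spermatids OPN4, at 0.379 to 0.719 TPM, was still above these 4 other opsins in every library.

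**Figure D2:**
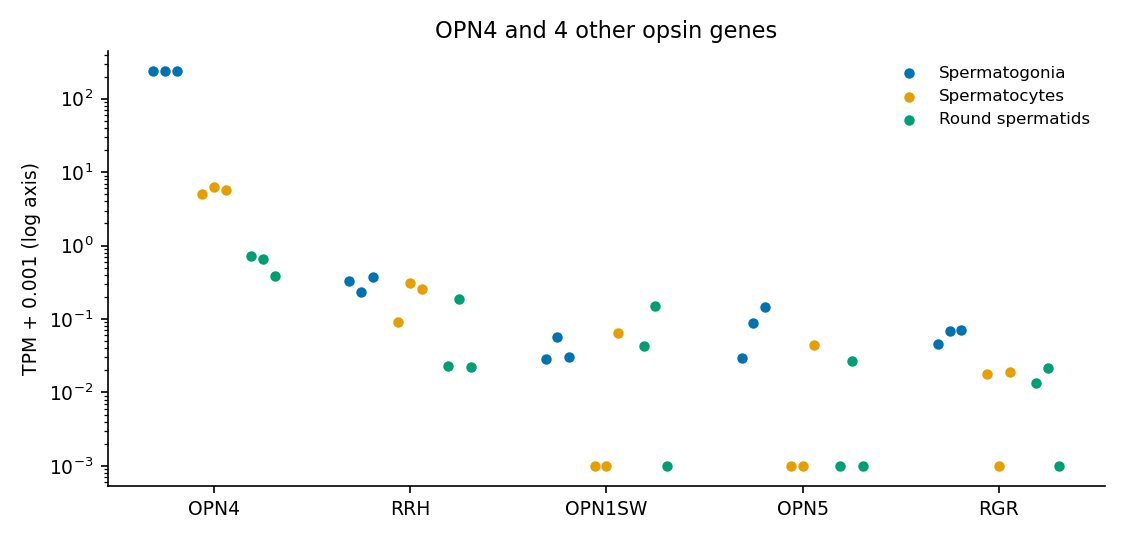
TPM + 0.001 of the 5 opsins compared here in each library, on a log axis, by stage. OPN4 spans 0.379 to 242 TPM, and the 4 other opsins stay at or below 0.374 TPM in all 9 libraries.

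Markers of the labelled stages and of other testis cells were read beside OPN4. The 8 spermatocyte markers summed to 408 to 418 CPM in spermatogonia, 1716 to 2012 CPM in spermatocytes and 205 to 275 CPM in round spermatids. Their highest mean was in spermatocytes for 6 of them and in spermatogonia for 2. The 6 spermatid markers were already at 1730 to 1774 CPM in spermatogonia libraries, and at 471 to 1511 CPM in spermatocytes and 4786 to 7124 CPM in round spermatids. For 4 of these the highest mean was in round spermatids and for 2 in spermatogonia. The 7 of 9 spermatogonia markers with a symbol summed to 93.9 to 97.9 CPM in spermatogonia, 36.1 to 47.4 CPM in spermatocytes and 147 to 206 CPM in round spermatids. As that sum they do not set the libraries labelled spermatogonia apart, but ID4 was its largest member in round spermatids. Without ID4 the summed means of the other markers were higher in spermatogonia than in round spermatids. Of these 7 markers 3 had their highest mean in spermatogonia, namely UCHL1, DMRT1 and STRA8, and the other 4, KIT, ID4, GFRA1 and ZBTB16, had it in round spermatids. UCHL1, a spermatogonial marker in pig testis, averaged 26.1 ± 1.36 CPM in spermatogonia, 1.72 ± 0.679 CPM in spermatocytes and 1.90 ± 0.686 CPM in round spermatids (SD, n = 3 each). KIT, the receptor named in the headings of the spermatogonia columns, averaged 6.36 ± 0.165 CPM in spermatogonia, 7.47 ± 0.747 CPM in spermatocytes and 24.6 ± 1.54 CPM in round spermatids (SD, n = 3 each), so it does not set those libraries apart either. ID4, a marker of undifferentiated spermatogonia in mouse, averaged 1.03 CPM in spermatogonia, 1.69 CPM in spermatocytes and 105 CPM in round spermatids.

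Markers of Leydig cells, the steroid-making cells between the tubules, were, as a sum, also highest in the libraries where OPN4 was highest. The 6 of 8 Leydig markers with a symbol summed to 297 to 316 CPM in spermatogonia, 1.88 to 2.96 CPM in spermatocytes and 25.6 to 33.8 CPM in round spermatids. INSL3, a Leydig cell hormone, averaged 173 CPM in spermatogonia, 0.562 CPM in spermatocytes and 3.11 CPM in round spermatids. Of the 6 markers 5 had their highest mean in spermatogonia. The exception was HSD17B3, an enzyme of testosterone synthesis, which averaged 2.67 CPM in spermatogonia, 0.152 CPM in spermatocytes and 11.4 CPM in round spermatids. Both OPN4 and these markers were low in spermatocytes. In round spermatids OPN4 was below its spermatocyte range and the Leydig sum above its own. CYP11A1, at 11.9 CPM, and HSD17B3 made up most of that sum. Against spermatocytes 4 of the 6 markers were called higher and 0 lower, and STAR and LHCGR were not called. CYP17A1, 1 of those 4, averaged 1.62 CPM in round spermatids against 0.662 CPM in spermatocytes. It rose by 1.28 ± 0.281 on the log2 scale (SE, edgeR adjusted p = 0.00165). None of the 6 markers was at 0 throughout a stage, and their part in the OPN4 values was not tested.

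Other somatic markers took a different course from OPN4. The 6 markers of myoid cells, the contractile cells around the tubules, summed to 18.4 to 19.2 CPM in spermatogonia, 9.58 to 22.3 CPM in spermatocytes and 4808 to 6121 CPM in round spermatids. The 11 markers of Sertoli cells, the nurse cells of the tubule, summed to 254 to 262 CPM in spermatogonia, 37.7 to 57.4 CPM in spermatocytes and 1113 to 1199 CPM in round spermatids. AMH, a Sertoli hormone, was the 1 Sertoli marker at 0 in all spermatocyte libraries. The 4 of 5 endothelial markers with a symbol stood at 166 to 190 CPM in round spermatids, against at most 16.8 CPM in any other library. Round spermatid libraries thus had the highest myoid, Sertoli and endothelial sums and the least OPN4, and a rise of other listed genes in them stands beside these marker values, whose part in it was not tested.

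**Figure D3:**
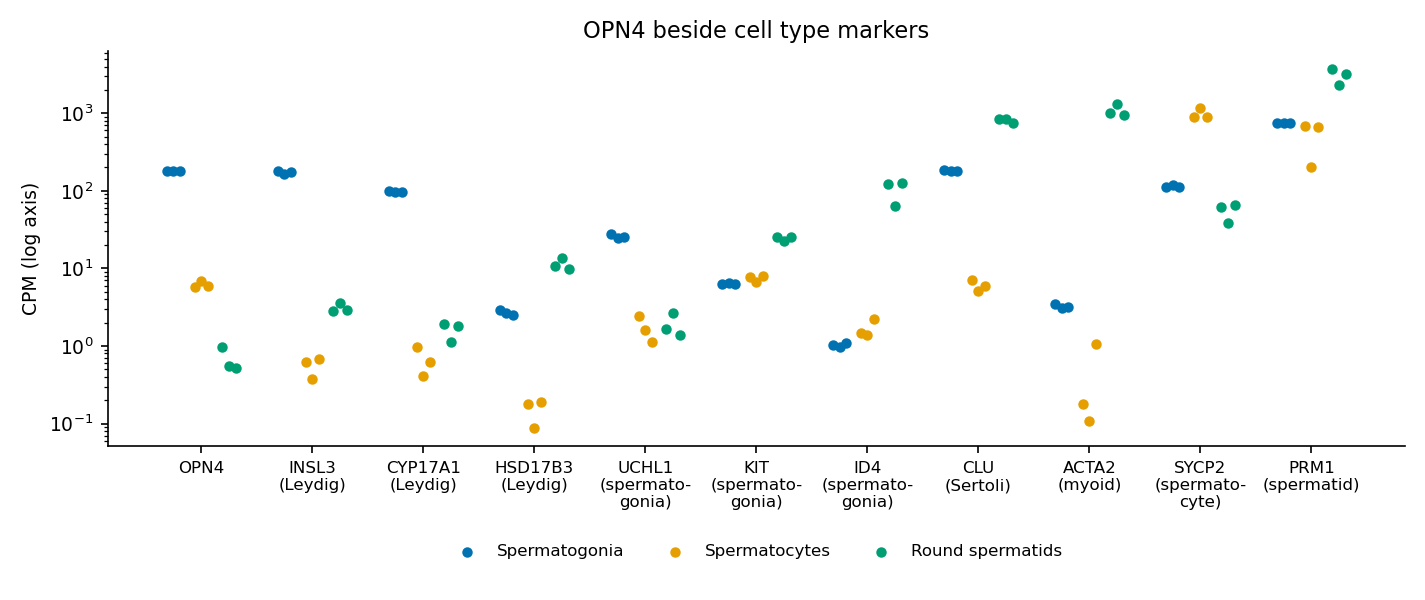
CPM of OPN4 and of 10 marker genes in each library, by stage, on a log axis. OPN4, INSL3, CYP17A1 and UCHL1 are highest in spermatogonia, SYCP2 is highest in spermatocytes, and HSD17B3, KIT, ID4, CLU, ACTA2 and PRM1 are highest in round spermatids. Other list members are not drawn, among them the 2 of 8 spermatocyte and 2 of 6 spermatid markers highest in spermatogonia.

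Genes linked to opsin signals were read from 5 lists. They were the Gq cascade of melanopsin, opsin shut-off, the cAMP arm, the rod and cone cascade, and the supply of retinal. The cAMP arm held G protein subunits, adenylyl cyclases and phosphodiesterases. Of 87 listed genes 79 had a symbol and 70 passed the filter. Members that passed only through the stage where they are high had to differ between stages, so the counts over the 70 are a description. Tests were edgeR's quasi-likelihood test over all 16802 genes with Benjamini-Hochberg adjustment.

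In spermatocytes against spermatogonia, most listed genes were lower, as OPN4 was. Of the 70 genes 42 fell, 13 rose and 15 did not pass the test, with a median log2 difference of −0.84. Over all tested genes 44.0% fell and 29.3% rose, with a median of −0.32. The higher share of all calls, 40.0%, was 26.8% with no normalization factors, where the 13 rises of listed genes became 8. In a limma fit on log2(TPM + 1), which changes unit and model too, it was 23.4% with 7 rises. In the Gq cascade 11 of 16 genes fell and 2 rose. Shut-off genes fell in 7 of 10 cases, cAMP genes in 11 of 18, rod and cone genes in 7 of 15 and retinal supply genes in 6 of 11. The rises numbered 1, 5, 4 and 1 in these 4 lists. The 5 rises in the cAMP arm became 3 on leaving out spermatogonia replicate 1, spermatogonia replicate 2 or spermatocytes replicate 3. The 7 falls among rod and cone genes became 4 on leaving out spermatogonia replicate 3 or spermatocytes replicate 4, and the 1 rise in retinal supply became 0 without spermatogonia replicate 1. With the spermatogonia libraries summed into 1, the 42 falls became 28, those of the Gq cascade 6, of shut-off 4 and of rod and cone genes 3. At this same step the Leydig sum was 1.88 to 2.96 CPM in spermatocytes against 297 to 316 CPM in spermatogonia, and the Sertoli sum 37.7 to 57.4 CPM against 254 to 262 CPM. Their part in the falls of listed genes was not tested.

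The channels and G proteins of the Gq cascade did not move together at this step. TRPC7, a cation channel opened downstream of melanopsin in mouse retina, had 15.0, 15.9 and 11.2 CPM in spermatocytes 2, 3 and 4, against 2.10, 2.28 and 2.86 CPM in spermatogonia 1, 2 and 3. It rose by 2.54 ± 0.197 on the log2 scale (SE, edgeR adjusted p = 2.37e-06), opposite to OPN4, and the stages did not overlap. ITPR3, a calcium release channel gated by the lipid messenger IP3, averaged 4.13 CPM in spermatocytes against 14.2 CPM in spermatogonia and fell by 1.79 ± 0.212 (edgeR adjusted p = 3.29e-05). GNAQ, the Gq alpha subunit, averaged 4.12 ± 1.03 CPM in spermatocytes and 4.09 ± 0.213 CPM in spermatogonia (SD, n = 3 each), a log2 difference of 0.01 ± 0.175 (edgeR adjusted p = 0.96). GNA11, its close relative, averaged 95.0 CPM in spermatocytes against 146 CPM in spermatogonia, a difference of −0.62 ± 0.169 (edgeR adjusted p = 0.00688) that was −0.44 and no longer called with RLE size factors.

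Shut-off genes mostly fell, and cAMP genes went both ways. The arrestin ARRB2, which uncouples activated receptors, averaged 10.7 CPM in spermatocytes against 23.9 CPM in spermatogonia and fell by 1.15 ± 0.146 (edgeR adjusted p = 4.97e-05). The receptor kinase GRK2 averaged 20.5 CPM in spermatocytes against 44.8 CPM in spermatogonia and fell by 1.13 ± 0.152 (edgeR adjusted p = 7.66e-05). GRK3, a second receptor kinase, averaged 198 CPM in spermatocytes and 145 CPM in spermatogonia, a log2 difference of 0.44 that turned to −0.09 on the TPM scale. GNAI2, an inhibitory G protein subunit that lowers cAMP, averaged 127 ± 4.56 CPM in spermatocytes against 51.7 ± 1.38 CPM in spermatogonia (SD, n = 3 each) and rose by 1.29 ± 0.201 (edgeR adjusted p = 0.000205). GNAZ, another member of that class, averaged 15.3 CPM in spermatocytes against 31.5 CPM in spermatogonia and fell by 1.04 ± 0.121 (edgeR adjusted p = 2.98e-05).

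Vision genes outside the melanopsin cascade also went both ways. PDE6D, a lipid-binding carrier named for its link to the rod phosphodiesterase, averaged 332 CPM in spermatocytes against 97.4 CPM in spermatogonia and rose by 1.77 ± 0.155 (edgeR adjusted p = 4.77e-06). SLC24A1, the sodium, calcium and potassium exchanger of rods, averaged 25.5 CPM in spermatocytes against 9.74 CPM in spermatogonia and rose by 1.39 ± 0.164 (edgeR adjusted p = 3.12e-05). Of the retinal supply genes, RDH11, a retinol dehydrogenase, had 0.960, 1.03 and 0.995 CPM in spermatocytes 2, 3 and 4, against 13.1, 13.0 and 13.1 CPM in spermatogonia 1, 2 and 3. It fell by 3.72 ± 0.145 (edgeR adjusted p = 1.77e-07). RDH12, a related enzyme of photoreceptors, averaged 9.27 ± 0.179 CPM in spermatogonia (SD, n = 3) and was at or near 0 in the other 6 libraries, with at most 0.0383 CPM in a spermatocyte library and at most 0.0846 CPM in a round spermatid library.

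In round spermatids against spermatocytes most listed genes were higher, while OPN4 was lower again. Of the 70 genes 42 rose, 18 fell and 10 did not pass the test, with a median log2 difference of 1.16. Over all tested genes 42.7% rose and 36.4% fell, with a median of 0.19, and the higher share of all calls, 54.0%, was 65.7% with no normalization factors. Gq cascade genes rose in 11 of 16 cases and fell in 4, with a median of 2.25, and the 4 falls became 2 with no normalization factors, on TPM and with the replicate number as a block. Rises against falls were 7 and 2 of 10 for shut-off, 13 and 4 of 18 for the cAMP arm, 6 and 5 of 15 for rod and cone genes, and 5 and 3 of 11 for retinal supply. The myoid, Sertoli, endothelial and Leydig marker sums were all higher in these round spermatid libraries than in the spermatocyte libraries, and their part in the rises was not tested.

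The receptor kinase GRK5 was near 1 CPM in spermatocytes and abundant in round spermatids. It had 92.8, 113 and 99.1 CPM in round spermatids 1, 2 and 3, against 0.725, 0.698 and 1.19 CPM in spermatocytes 2, 3 and 4. Its log2 rise was 6.86 ± 0.224 (SE, edgeR adjusted p = 2.73e-09). ITPR1, an IP3-gated calcium release channel, averaged 28.2 ± 3.57 CPM in round spermatids against 2.01 ± 0.82 CPM in spermatocytes (SD, n = 3 each) and rose by 3.80 ± 0.272 (edgeR adjusted p = 3.62e-07). GNAQ averaged 22.0 ± 1.46 CPM in round spermatids against 4.12 ± 1.03 CPM in spermatocytes and rose by 2.42 ± 0.179 (edgeR adjusted p = 4.74e-07). PLCB4, the phospholipase of the mouse melanopsin cascade, averaged 7.53 CPM in round spermatids against 0.860 CPM in spermatocytes and rose by 3.12 ± 0.311 (edgeR adjusted p = 4.63e-06). TRPC6 averaged 2.25 CPM in round spermatids against 0.204 CPM in spermatocytes and rose by 3.46 ± 0.279 (edgeR adjusted p = 8.76e-07). In spermatocytes against spermatogonia the log2 difference was −0.97 ± 0.310 for PLCB4 (edgeR adjusted p = 0.0159) and −1.24 ± 0.299 for TRPC6 (edgeR adjusted p = 0.00358). Thus GNAQ, PLCB4 and TRPC6, named after their values were seen, were higher in the libraries in which OPN4 was lowest. Of the 16 Gq cascade genes 4 fell, TRPC7 among them. GNA11 averaged 69.3 CPM in round spermatids, a log2 difference of −0.45 ± 0.169 from spermatocytes (edgeR adjusted p = 0.0294). That difference was 0.04 with no normalization factors. It was no longer called without spermatocyte replicate 3 (−0.39), round spermatid replicate 1 (−0.34) or round spermatid replicate 3 (−0.36), nor with only the 2 stages compared. From spermatogonia GNA11 differed by −1.08 ± 0.170 (edgeR adjusted p = 0.000173). PRKCZ, a protein kinase C, fell by 1.21 ± 0.142 relative to spermatocytes (edgeR adjusted p = 1.67e-05).

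A smaller set fell together with OPN4 at this step. TRPC7 had 0.457, 0.480 and 0.625 CPM in round spermatids 1, 2 and 3, against 15.0, 15.9 and 11.2 CPM in spermatocytes 2, 3 and 4, and fell by 4.75 ± 0.229 (edgeR adjusted p = 2.58e-08). GRK3 averaged 46.8 CPM in round spermatids against 198 CPM in spermatocytes and fell by 2.08 ± 0.136 (edgeR adjusted p = 1.92e-07). ADCY10, the soluble adenylyl cyclase that sperm need for motility, averaged 36.2 CPM in round spermatids against 153 CPM in spermatocytes and fell by 2.08 ± 0.134 (edgeR adjusted p = 1.69e-07). SLC24A1 averaged 2.17 CPM in round spermatids against 25.5 CPM in spermatocytes and fell by 3.55 ± 0.182 (edgeR adjusted p = 3.71e-08). ABCA4, the retinal transporter of photoreceptor discs, averaged 4.93 CPM in round spermatids against 27.0 CPM in spermatocytes and fell by 2.45 ± 0.193 (edgeR adjusted p = 7.30e-07).

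**Figure D4:**
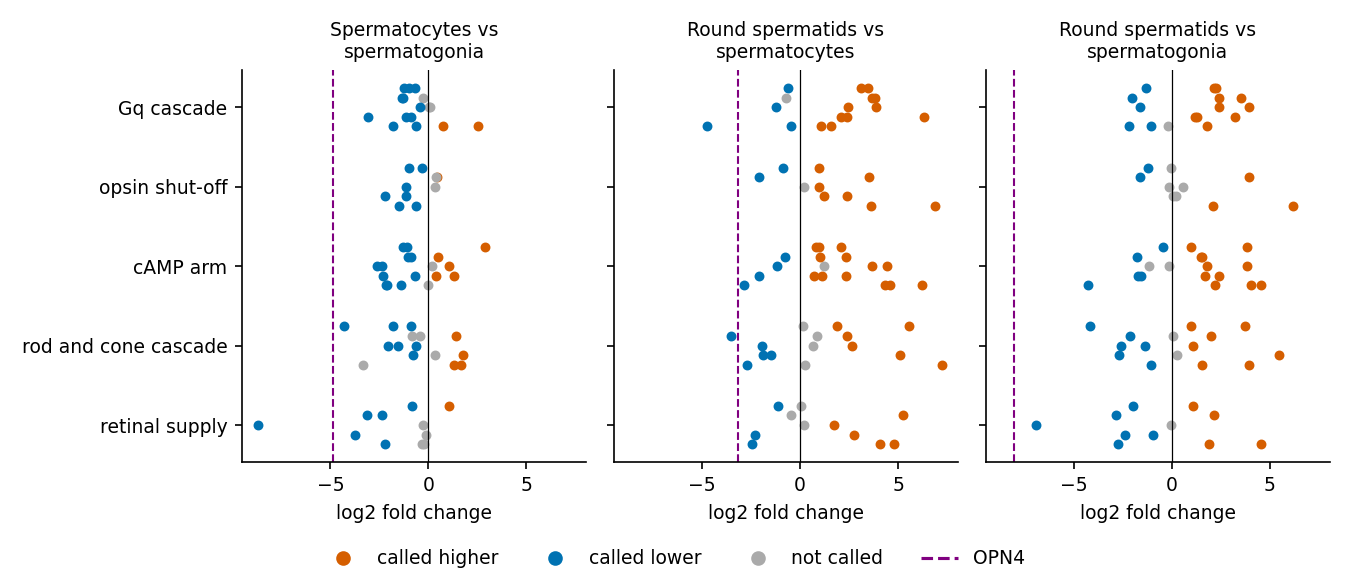
Fitted log2 differences of the tested members of 5 lists in the 3 stage comparisons, coloured by call, with the dashed line at the value of OPN4. List medians run from −0.95 to −0.79 for spermatocytes against spermatogonia and from 0.19 to 2.25 for round spermatids against spermatocytes.

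In round spermatids against spermatogonia the listed genes were divided, while OPN4 was 266-fold lower. Of the 70 genes 35 rose, 24 fell and 11 did not pass the test, with a median log2 difference of 0.77. Over all tested genes 39.5% rose and 39.7% fell, with a median of 0.00, and the higher share of all calls, 49.9%, was 34.9% in the limma fit on log2(TPM + 1). Rises against falls were 10 and 5 of 16 in the Gq cascade, 3 and 2 of 10 for shut-off, 11 and 5 of 18 for the cAMP arm, 7 and 6 of 15 for rod and cone genes, and 4 and 6 of 11 for retinal supply. RDH10, a retinol dehydrogenase, averaged 77.5 CPM in round spermatids against 3.28 CPM in spermatogonia and rose by 4.56 ± 0.194 (edgeR adjusted p = 2.10e-08). GRK4, a receptor kinase known from testis, averaged 296 ± 30.0 CPM in round spermatids against 684 ± 8.20 CPM in spermatogonia (SD, n = 3 each) and fell by 1.21 ± 0.118 (edgeR adjusted p = 4.53e-06). PRKCA, a protein kinase C that diacylglycerol activates, averaged 57.9 CPM in round spermatids against 16.6 CPM in spermatogonia and rose by 1.81 ± 0.104 (edgeR adjusted p = 1.29e-07). GNAI2 averaged 276 ± 87.0 CPM in round spermatids against 51.7 ± 1.38 CPM in spermatogonia and rose by 2.42 ± 0.208 (edgeR adjusted p = 1.82e-06). Another kinase of the family went the other way. PRKCZ, an atypical protein kinase C, averaged 23.9 CPM in round spermatids against 72.7 CPM in spermatogonia and fell by 1.60 ± 0.143 (edgeR adjusted p = 2.35e-06).

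Set on the TPM scale beside the 70 listed genes, OPN4 changed place from stage to stage. In spermatogonia 2 of the 70 had a higher mean TPM than OPN4, namely GRK4 at 417 TPM and PDE6D, and the median of the 70 was 2.11 TPM. In spermatocytes 15 of the 70 were above OPN4, with a median of 0.605 TPM. In round spermatids 50 of the 70 were above it, with a median of 1.77 TPM. In spermatogonia, where OPN4 averaged 238 TPM, GNA11 averaged 64.1 TPM, GNAQ 3.17 TPM, PLCB4 1.05 TPM and TRPC7 1.07 TPM.

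The nearest genes with a symbol on each side of OPN4, WAPL and BMPR1A, did not follow its course through both steps. WAPL, which releases cohesin from chromosomes, ends 56885 bases before OPN4. It had 552, 714 and 699 CPM in spermatocytes 2, 3 and 4, against 250.5, 262 and 258 CPM in spermatogonia 1, 2 and 3, and rose by 1.35 ± 0.131 (edgeR adjusted p = 9.00e-06). In round spermatids WAPL averaged 205 CPM, a fall of 1.68 ± 0.132 relative to spermatocytes (edgeR adjusted p = 7.56e-07). BMPR1A, a receptor for bone morphogenetic proteins, lies 82450 bases past OPN4. It averaged 25.3 ± 2.75 CPM in spermatocytes against 7.49 ± 0.298 CPM in spermatogonia (SD, n = 3 each) and rose by 1.76 ± 0.132 (edgeR adjusted p = 2.03e-06). In round spermatids BMPR1A averaged 29.4 CPM, a log2 difference of 0.22 ± 0.127 from spermatocytes (edgeR adjusted p = 0.143). LDB3, annotated 141 bases past OPN4, had no matching symbol and is not analysed here. Whether strand was used in counting is not given in the sources used here, so reads that run across from LDB3 cannot be told apart from OPN4 reads. Within 500 kb, a window chosen after the values were seen, GLUD1, the glutamate dehydrogenase of mitochondria, averaged 82.4 CPM in round spermatids against 18.1 CPM in spermatogonia. In that window MMRN2 averaged 0.190 CPM in spermatogonia, 0.0131 CPM in spermatocytes and 2.11 CPM in round spermatids. ADIRF averaged 0.0332, 0 and 4.50 CPM in the same order. Both were highest in round spermatids. Their lower level in spermatocytes than in spermatogonia rested on few reads, since both were near 0 in these stages, which limits any likeness to OPN4 at that step.

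**Figure D5:**
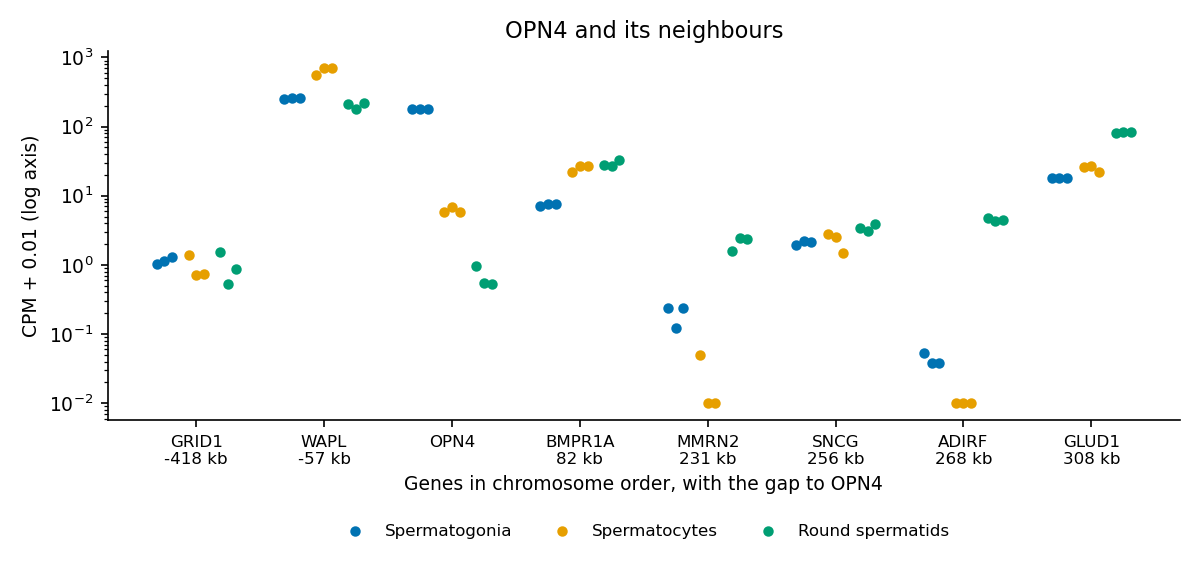
CPM + 0.01 of OPN4 and of the 7 tested genes within 500 kb of it in each library, on a log axis, in chromosome order and labelled with the gap to OPN4 in kb. WAPL is highest in spermatocytes, at 552 to 714 CPM, and OPN4 is highest in spermatogonia, at 179 to 182 CPM.

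The 5 genes whose log2 CPM over the 9 libraries was most like that of OPN4, by Pearson r among 13735 symbols, were ANKRD13B (r = 0.9978), RAB11FIP4 (r = 0.9960), HSF2BP (r = 0.9957), SCNN1G (r = 0.9954) and DOP1B (r = 0.9950). An r of at least 0.99 was reached by 24 symbols and one of at least 0.95 by 649, so likeness of this kind was common. The 9 points are 3 stages of 3 libraries and share depth and scaling within a library, and r takes no account of the size of a fall. ANKRD13B, an ankyrin repeat protein, averaged 227 CPM in spermatogonia, 120.0 CPM in spermatocytes and 77.7 CPM in round spermatids. DOP1B averaged 17.1 CPM in spermatogonia, 6.16 CPM in spermatocytes and 2.69 CPM in round spermatids. HSF2BP, a meiotic recombination factor, averaged 167 CPM in spermatogonia, 105 CPM in spermatocytes and 73.7 CPM in round spermatids. All 5 had a smaller log2 difference than OPN4 between round spermatids and spermatogonia, at −1.18 to −2.67 against −8.05. Among the listed partners, GNAZ came closest with r = 0.989, and the 6 Leydig markers ran from r = −0.226 for HSD17B3 to r = 0.878 for STAR.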

How the data were processed

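RNA-seq of pig spermatogonia, spermatocytes and round spermatids (3 libraries each) came, per the labels' protocols, from total RNA and a directional kit. Per the submitters' processing notes, bcl2fastq and Sscrofa11.1 were used. No aligner, quantifier or annotation is given in the sources used here. The authors deposited estimated counts and TPM per gene, and TPM was used as deposited. Library columns were matched by heading and number. The other 6 of the 15 were not used. Round spermatid headings carry the titles, and the other matches rest on the meaning of the headings. A symbol was found for 14749 of 22342 identifiers.

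Estimated counts were rounded, filtered with filterByExpr, scaled with TMM and fitted over all 9 libraries with edgeR 4.0.16 (glmQLFit, glmQLFTest, common dispersion 0.0316). The call threshold was 0.05 after Benjamini-Hochberg adjustment. Each SE is the log2 difference divided by the square root of F. TMM factors ran from 0.774 to 1.26. No animals are named by the labels, so the p-values reflect only how far the libraries of a stage spread, in part perhaps technically. Spermatogonia libraries differed by little more than counting noise (median chi-square per gene 0.797 to 0.849, against 0.455 from counting alone) and were kept as 3. Round spermatid replicate 2 stood apart (19.8 and 21.3, against 2.26 between replicates 1 and 3).

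The genes, lists and comparisons were chosen with earlier results of these data known. Named genes were the called members highest in mean CPM, up to 3 of the commoner direction and 2 of the rarer per list and comparison, with the listed opsins, the nearest 2 genes on each side and the 5 most alike. Outside that rule, some genes were named after their values were seen. They were GNAQ, PLCB4, TRPC6 and ARRB2 in spermatocytes against spermatogonia, and GNAQ, PLCB4, TRPC6 and TRPC7 in round spermatids against spermatocytes. GLUD1, MMRN2 and ADIRF were also among them. The tests planned for OPN3 were not run. Genes with a stage at 0 have fitted values that depend on the prior count. Setting them at a floor of 3 counts moved the median of rod and cone genes in spermatocytes against spermatogonia to −0.64. Alternatives used DESeq2 1.42.0 and limma 3.58.1 in R 4.3.3, and the fit was tested on simulated data. Tables were made in Python 3.11.15 with pandas 2.3.3 and numpy 2.4.6, intervals with scipy 1.17.1, and plots with matplotlib 3.10.9.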

Additional observations from a re-analysis of the deposited data

How the results depend on the processing

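OPN4 kept its direction in all 3 comparisons under all 22 alternatives. Its log2 difference in spermatocytes against spermatogonia, −4.87 in the report, was −4.68 with RLE size factors, −5.29 with no normalization factors, −4.64 with no filter, −4.69 with DESeq2, −5.17 on log2(TPM + 1) with or without the filter, −5.37 on log2(TPM + 0.1), −4.67 with only the 2 stages and −4.63 without mitochondrial genes. On log2(TPM + 1), with or without the filter, it was −2.08 in round spermatids against spermatocytes and −7.24 in round spermatids against spermatogonia, where the pseudocount exceeds the level in round spermatids. Leaving out single libraries gave −4.95 to −4.82, −3.53 to −3.03 and −8.39 to −7.91.

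Same-numbered libraries did not deviate together (r from −0.0483 to 0.0283). Most of these pairs include a spermatogonia library, and those differ by little more than counting noise, so this could not exclude pairing. No animals are named by the labels, and the numbers were not taken as pairs. With the number as a replicate block OPN4 stood at −4.75, −3.33 and −8.08, and listed genes called higher and lower numbered 11 and 37, 42 and 17, and 35 and 24. Under the block falls of rod and cone genes in spermatocytes against spermatogonia went to 4, against 7 without it, and falls of Gq genes in round spermatids against spermatocytes to 2, against 4.

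In spermatocytes against spermatogonia, genes called higher, 4930 in the report, numbered 2604 on log2(TPM + 1), 2633 on log2(TPM + 0.1), 2644 on log2(TPM + 1) with no filter and 3229 with spermatogonia libraries summed. Listed genes called higher, 13 in the report, numbered 7, 7, 6 and 8 there, and 8 with no normalization factors. Falls of shut-off genes there, 7 in the report, numbered 4 with no filter, with DESeq2 and with spermatogonia libraries summed. The median of all genes with no normalization factors was −0.74 in spermatocytes against spermatogonia, 0.64 in round spermatids against spermatocytes and 0.04 in round spermatids against spermatogonia, and in the last it was −0.58 in the limma fit on log2(TPM + 0.1).

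Values turned round for ADCY10 in spermatocytes against spermatogonia, at −0.05 with no factors and −0.16 on TPM, for GRK3 in the same comparison, at −0.09 on TPM, for GNA11 in round spermatids against spermatocytes, at 0.04 with no factors, and for PDE6D in round spermatids against spermatogonia, at −0.36 and −0.37 on TPM. Of 2704 values of named genes 2524 kept direction and side of the threshold, 149 lost the call, 20 gained one and 11 turned round. The cause was not tested. Depth limits OPN4 in round spermatids, where 31 to 57 counts stand behind a value.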
